A study of Homo sapiens with 3 samples.

Results

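The genes described here are 9 genes of the complement system and of the fibrinogen family: C3, CFB, CFI, CD46, CD55, CD59, FGB, FGG and FGL1. They were matched by symbol to the gene identifiers of a table of 22827 genes, and all 9 were found. They were chosen because C3 and FGB had fewer reads in a knockout than in the control and FGL1 had more, so their ratios are given as a description of how they were chosen and not as a test. RNA was sequenced from the human hepatocellular carcinoma line Hep3B in 3 libraries: 1 of control cells, 1 of a USP39 knockout (USP39-KO) and 1 of a SIRT7 knockout (SIRT7-KO). Sets of 3 values follow the order control, USP39-KO, SIRT7-KO. The first target, USP39, is a ubiquitin-protease homologue of the spliceosome, and SIRT7 is a nuclear deacylase of the sirtuin family. The sources used here do not say how the knockouts were made or whether each line is a single clone or a pool. With 1 library per group no difference has a replicate check and no p-value is given. Intervals are exact 95% intervals that cover counting error only.

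Complement is a cascade of plasma proteins that tags and lyses targets. C3 is its central component, which is cleaved to C3b, and factor B (CFB) joins C3b to form the alternative pathway C3 convertase. Cells are shielded by membrane proteins: CD55 speeds the decay of convertases, CD46 is a cofactor for cleavage of C3b by factor I (CFI), and CD59 blocks the membrane attack complex. Fibrinogen, the precursor of the clot, is built from an alpha, a beta and a gamma chain, encoded by FGA, FGB and FGG in 1 cluster. FGL1 is a secreted fibrinogen-like protein made by hepatocytes. Hepatocytes are the main source of plasma C3, factor B, factor I and fibrinogen, and interleukin 6 and interleukin 1 raise many of these genes in the acute-phase response.

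Identifiers and positions are from GENCODE 29 (GRCh38), and the sources used here do not name the build behind the deposited counts. C3 (ENSG00000125730) is on chromosome 19, 6677704 to 6730562, minus strand. CFB (ENSG00000243649) is on chromosome 6, 31945650 to 31952084, plus strand. CFI (ENSG00000205403) is on chromosome 4, 109740694 to 109802179, minus strand. CD55 (ENSG00000196352) and CD46 (ENSG00000117335) lie on the plus strand of chromosome 1, at 207321376 to 207386804 and 207752057 to 207795513. CD59 (ENSG00000085063) is on chromosome 11, 33703010 to 33736491, minus strand. FGB (ENSG00000171564; 154562956 to 154571086, plus strand) and FGG (ENSG00000171557; 154604134 to 154612967, minus strand) lie on chromosome 4 with FGA (154583126 to 154590766, minus strand) between them.

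Upstream sequence is shown for FGB and its cluster neighbour FGA. Both had their highest counts in the control library, though FGA had only 6 reads there. Each line holds 200 bases from RefSeq (GRCh38.p14), from 230 to 31 bases before the annotated start, 5′ to 3′ on the strand of the gene. Capitals mark matches, on either strand, to any of 4 motifs picked from textbook knowledge of acute-phase and liver promoters: the interleukin 6 response core CTGGGAA, the STAT motif TTCNNNGAA, the HNF1 core GTTAAT and the C/EBP motif TTGCNNAA.
FGB, chr4:154562750-154562949: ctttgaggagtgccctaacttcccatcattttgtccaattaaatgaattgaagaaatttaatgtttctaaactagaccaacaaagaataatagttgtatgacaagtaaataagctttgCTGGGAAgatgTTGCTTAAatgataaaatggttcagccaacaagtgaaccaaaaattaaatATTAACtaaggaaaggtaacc
FGA, chr4:154590773-154590972: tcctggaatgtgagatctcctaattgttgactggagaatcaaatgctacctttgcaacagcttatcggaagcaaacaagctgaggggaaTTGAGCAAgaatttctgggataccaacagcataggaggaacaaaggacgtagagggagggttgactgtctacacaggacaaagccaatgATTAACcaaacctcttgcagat
The FGB window held CTGGGAA from 112 bases before the start, TTGCTTAA from 101 and ATTAAC from 51, with no overlap between them. The FGA window held TTGAGCAA from 141 bases and ATTAAC from 52. Windows of the same length were read for 7 of the 9 genes. CTGGGAA was in those of FGB and FGG (from 161 bases before the start in FGG), and TTCNNNGAA in those of CFB and CD59. RefSeq starts differ from the ends of the GENCODE spans given above: the windows of CFB, CD55 and FGG lay inside those spans and that of CFI partly so, and the FGG window overlapped untranslated exons of other FGG transcripts. Of 35114 such windows in the promoter table, CTGGGAA was in 7.31%, TTCNNNGAA in 5.45%, GTTAAT in 5.23% and TTGCNNAA in 7.34%. A match describes letters and not a bound site. C3 and FGL1 had no entry.

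The 3 libraries held 16151522 to 19427940 counts. Of 14 hepatocyte markers, 8 had no read in any library, among them albumin (ALB), alpha-fetoprotein (AFP) and transthyretin (TTR). Over the whole table, 7183 of 22827 genes had no read in any library. Whether the zeros of these markers reflect expression or the counting was not tested, and none is taken as a trait of Hep3B. Where a gene had no read, counting error alone allows as many as 3 missed reads. That is a floor of 0.154, 0.182 and 0.184 CPM (reads relative to the scaled library total). The floor does not cover reads lost in alignment or counting, steps that the sources used here do not describe. Of the markers with reads, the urea cycle enzyme CPS1 was the only abundant one, with 26607, 22163 and 22378 reads. The transcription factor HNF4A had 113, 29 and 7 reads, with ratios to the control of 0.303 in USP39-KO and 0.0737 in SIRT7-KO. The others, APOA1, AMBP, SERPINA1 and TF, had 2 reads or fewer in every library. Reads of USP39 were 1829, 1066 and 1511, and reads of SIRT7 were 984, 808 and 608. Each target was lowest in its own library, with ratios to the control of 0.688 (0.637 to 0.742) for USP39 and 0.736 (0.664 to 0.815) for SIRT7.

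The 9 genes fell into 2 groups by level. C3 and the 3 membrane regulators had 1735 reads or more in every library, whereas CFB, CFI, FGB, FGG and FGL1 had 55 or fewer. Together the 9 genes held 0.349%, 0.323% and 0.343% of all counts, and CD55 alone took 57.8%, 61.2% and 59.7% of that. The rule for calling a gene higher or lower was a ratio of at least 2-fold with an interval that excluded no change, for genes reaching 10 counts in any library. That filter kept 7 of the 9 genes and left out CFB and CFI. FGG and FGL1 passed it through SIRT7-KO alone and FGB through the control alone, so the count of genes passed supports nothing by itself.

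In USP39-KO against control, 2 of the 9 genes were lower by this rule (C3 and FGB) and 0 higher, beside 3.37% of 12726 genes lower and 1.49% higher (4.86% in either direction). In SIRT7-KO against control, 1 was lower (FGB) and 2 were higher (FGG and FGL1), beside 4.05% of genes lower and 3.02% higher (7.06% in either direction). In SIRT7-KO against USP39-KO, 3 were higher (C3, FGG and FGL1) and 0 lower, beside 5.03% higher and 3.51% lower (8.54% in either direction). The choice of the genes used these libraries, so nothing is read from these counts. The first 2 comparisons share the control library. The same shares of all genes tested are the background for the counts given below for lists of genes and for loci.

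**Figure D1:**
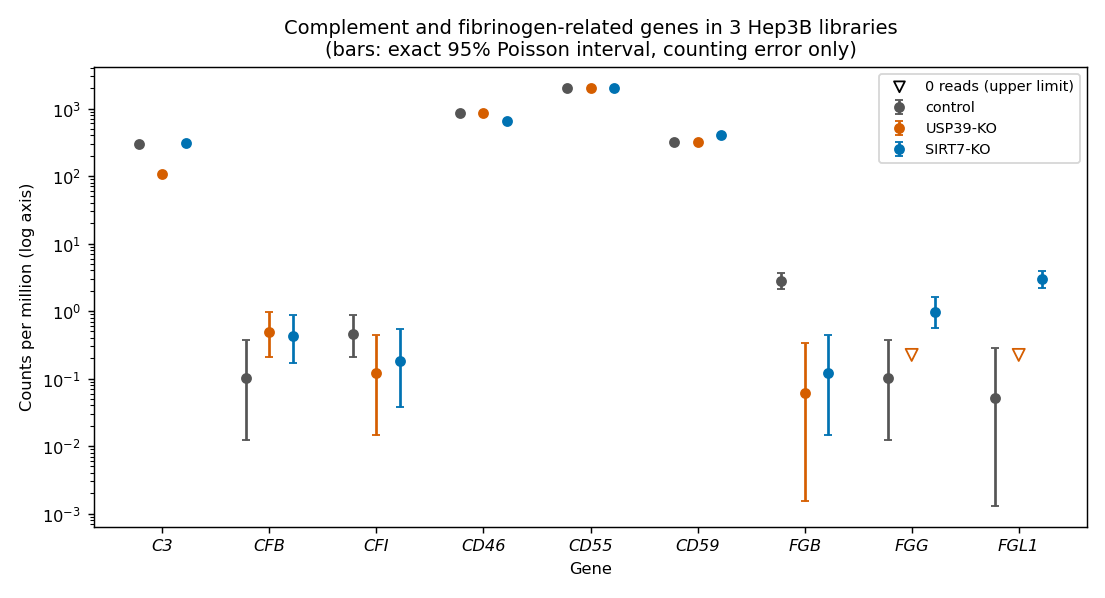
Level of each gene in CPM (log axis) for the control and both knockout libraries, with exact 95% Poisson intervals and open triangles for the upper limit of 0 reads. C3 is low in USP39-KO alone (105 CPM), the 3 membrane regulators lie at 318 CPM or more in every library, and FGB, FGG and FGL1 each stand out in a single library.

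C3, the component on which all complement pathways converge, had 5825, 1735 and 4977 reads. These were 299.8, 105 and 305 CPM. USP39-KO stood apart as the low library, and the control and SIRT7-KO intervals overlapped (292 to 308 CPM and 297 to 314 CPM). The ratio of C3 in USP39-KO to the control was 0.352 (0.333 to 0.371), or 2.84-fold lower. C3 was 2.89-fold higher in SIRT7-KO than in USP39-KO (2.74 to 3.06). SIRT7-KO against control gave a ratio of 1.02 (0.979 to 1.06). Among the 4784 genes that reached 1000 reads in any library, 15 were lower and 10 higher by the rule in USP39-KO, or 0.523%. C3 was one of 6 of these with a log2 ratio of its own size or below. Since C3 was chosen for its fall in these libraries, nothing is read from that place. Part of C3 lies over GPR108 on the same strand, a gene with 1249, 908 and 1120 reads, and the sources used here do not say how reads of overlapping genes were assigned.

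Among the other complement components, C1RL, a C1r-like protease, was also lower in USP39-KO by the rule, with 437, 161 and 447 reads (2.30-fold lower, 1.91 to 2.77). C1R, a protease of the C1 complex, had 63, 43 and 140 reads and was 2.65-fold higher in SIRT7-KO than in the control (1.95 to 3.62). C5, which follows C3 in the cascade, had 215, 178 and 172 reads and ratios near 1 in both knockouts (0.977 and 0.952). Of 29 components listed, 13 had no read in any library and 9 passed the filter. In USP39-KO 2 of these 9 were lower and 0 higher, beside 3.37% and 1.49% of all genes tested. Of these 2, C3 was chosen on these libraries, so nothing is read from that count. The median log2 ratio was -0.07, beside 0.00 over all genes tested. In SIRT7-KO 1 was higher and 0 lower, beside 3.02% and 4.05%, with a median of 0.02, beside -0.01. C3 made up 81.2%, 65.5% and 77.8% of the reads of all listed components in the 3 libraries.

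CFB, the protease subunit of the alternative pathway convertase, had 2, 8 and 7 reads. Its ratio to the control was 4.72 (0.942 to 45.6) in USP39-KO and 4.17 (0.793 to 41.1) in SIRT7-KO, and both intervals included no change. A difference in CFB was therefore not detectable at these counts. CFB overlaps C2 and another protein-coding gene, ENSG00000244255, on the same strand, and both were listed at 0 in every library. How reads of overlapping genes were assigned is not stated in the sources used here. Nearby, C4B was listed at 0 in every library and C4A had 1 read in SIRT7-KO. Of 70 other protein-coding genes within 500 kb of CFB, 58 had no read in any library (82.9%), against 23.1% of the 19130 protein-coding genes in the table. Whether low counts in this region reflect expression was not tested.

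CFI, the soluble protease that cleaves C3b, had 9, 2 and 3 reads. Ratios to the control were 0.262 (0.0276 to 1.27) and 0.397 (0.0691 to 1.59). The control was the high library in reads, but both intervals included no change.

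CD55, the most abundant of the 9 genes, had 39164, 32923 and 33026 reads, or 2016, 2000.4 and 2024 CPM. Its ratio to the control was 0.992 (0.978 to 1.01) in USP39-KO and 1.00 (0.989 to 1.02) in SIRT7-KO, so that the libraries lay within counting error. The sign of the SIRT7-KO difference turned with upper-quartile scaling (log2 ratio 0.01 against -0.00).

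CD46 had 16471, 13888 and 10707 reads, or 848, 844 and 656 CPM. The control and USP39-KO overlapped (ratio 0.995, 0.973 to 1.02; its sign turned with median-of-ratios scaling), and SIRT7-KO was the low library. CD46 was 1.29-fold lower in SIRT7-KO than in the control (1.26 to 1.32) and 1.29-fold lower than in USP39-KO (1.25 to 1.32), short of the 2-fold rule. CD59 was highest where CD46 was lowest, with 6282, 5236 and 6571 reads, or 323, 318 and 403 CPM. It was 1.25-fold higher in SIRT7-KO than in the control (1.20 to 1.29), while its ratio in USP39-KO was 0.984 (0.948 to 1.02). The SIRT7-KO intervals of CD46 and CD59 exclude no change, but a single library per group gives no spread between cultures.

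Levels between genes were compared per length, as FPKM (reads scaled by the listed gene length and by the library total). In the control CD55 had 450.3 FPKM, CD46 97.4, CD59 65.4 and FGB 1.05, with C3 between CD59 and FGB, and CFI, FGG, FGL1 and CFB lay between 0.0155 and 0.120. The same 4 genes led in every library, and CD55 ranked 31st to 34th among all genes of the table. C3 ranked 1251st in the control, 3954th in USP39-KO and 1247th in SIRT7-KO. The order within the leading 4 depends on the length used: with the longest coding transcript, C3 passed CD59 in the control and SIRT7-KO. CD46, which came after CD59 in SIRT7-KO by the listed length, came before it by that length. The FPKM of CD46, CD55 and CD59 summed to 613, 602 and 615, against 12.5 for C3 in USP39-KO and 37.0 in SIRT7-KO.

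Of 21 complement regulators listed, 11 had no read in any library and 7 passed the filter. None of these was lower or higher by the rule in USP39-KO (median log2 ratio -0.02). In SIRT7-KO 1 was higher, thrombomodulin (THBD; 91, 56 and 169 reads, 2.21-fold, 1.70 to 2.89), and the median was 0.01. C4BPB, the beta chain of C4b-binding protein and a neighbour of CD55, had 4246, 2613 and 2373 reads, with ratios of 0.726 (0.692 to 0.763) in USP39-KO and 0.665 (0.632 to 0.700) in SIRT7-KO. Clusterin (CLU), a fluid-phase inhibitor of the membrane attack complex, had 12871, 12629 and 10894 reads, with ratios of 1.16 and 1.01. Among 8 complement receptors, the integrin beta chain ITGB2 was lower in USP39-KO (61 to 22 reads, 2.35-fold, 1.42 to 4.02), and it was the only receptor past the rule in either knockout against control. C1QBP, the most abundant of them, had 7306, 6829 and 6054 reads.

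**Figure D2:**
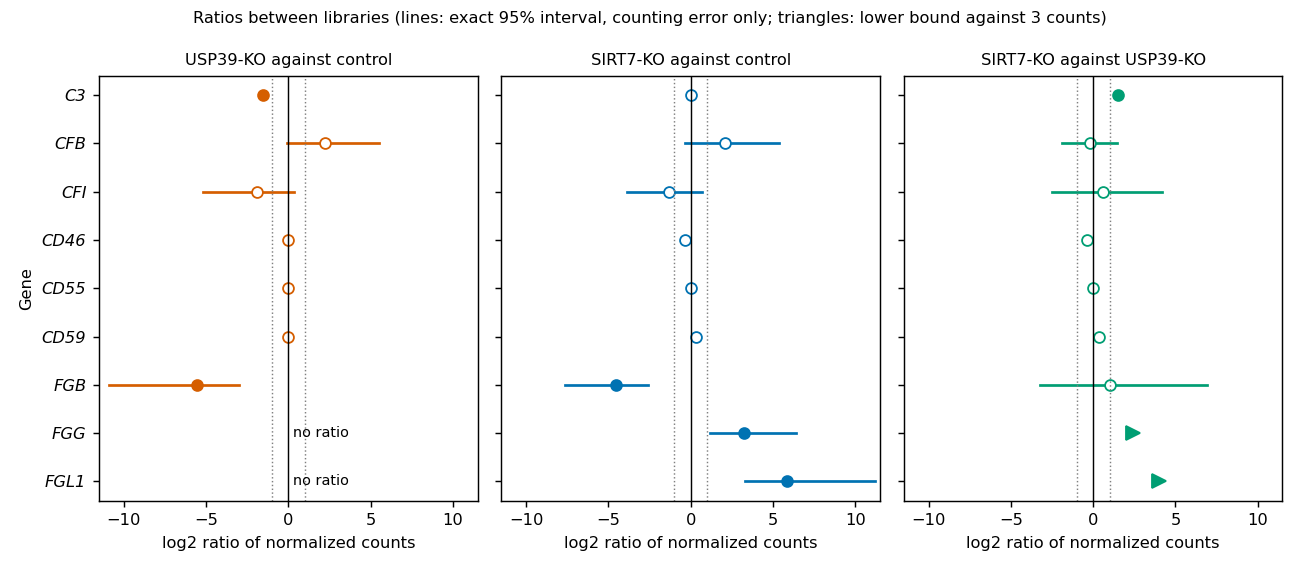
Log2 ratio of normalized counts for each gene in 3 comparisons, with exact 95% intervals, filled circles for genes past the 2-fold rule, triangles for lower bounds against 3 counts and dotted lines at 2-fold. C3 lies to the left in USP39-KO alone, FGB to the left in both knockouts, and FGG and FGL1 to the right in SIRT7-KO.

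FGB, the fibrinogen beta chain, had 55, 1 and 2 reads, or 2.83, 0.0608 and 0.123 CPM. The control was the only library with more than 2 reads, and its interval (2.13 to 3.68 CPM) lay above both others. FGB was 46.6-fold lower in USP39-KO (8.02 to 1873) and 23.1-fold lower in SIRT7-KO (6.10 to 195.5). The knockouts could not be told apart for this gene (ratio 2.02, 0.105 to 119).

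FGG, the gamma chain, had 2, 0 and 16 reads. SIRT7-KO was the high library, at 0.980 CPM (0.560 to 1.59), and the ratio to the control was 9.52 (2.24 to 85.4). Against USP39-KO, which had no read, the exact lower limit of the log2 ratio was 1.96. No fold is given for USP39-KO against control, since both counts were at or under the floor. FGA, the alpha chain, had 6, 0 and 1 reads; the exact intervals of its ratio to the control included no change in both knockouts (SIRT7-KO 0.198, 0.00431 to 1.64). By reads, FGB was highest in the control and FGG in SIRT7-KO, where FGG rested on 16 reads. FGA also had most reads in the control, but at 6 reads its high library is not settled. Reads of the 3 chains summed to 63, 1 and 19.

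FGL1 (ENSG00000104760; chromosome 8, 17864380 to 17910365, minus strand) had 1, 0 and 48 reads, and in SIRT7-KO reached 2.94 CPM (2.17 to 3.90). It was 57.1-fold higher in SIRT7-KO than in the control (9.78 to 2303). Against USP39-KO, which had no read, the exact lower limit of its log2 ratio was 3.66. The control and USP39-KO were both at or under the floor of 3 counts. Among the 12726 genes passing the filter, 6 had a higher log2 ratio than FGL1 in SIRT7-KO against control, and 6 had a lower one than FGB in USP39-KO against control. FGL1 and FGB were chosen on these libraries and each passed the filter through a single library, so nothing is read from these ranks.

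Of 22 fibrinogen chains and fibrinogen-like proteins listed, 9 passed the filter. In USP39-KO 2 were lower (FGB and tenascin TNC, with 15 reads in the control and 0) and 0 higher, and the median log2 ratio was -1.48. That median was FGL1's own value from 1 read and 0 reads, and was 0.00 with genes lacking reads placed at their bound. In SIRT7-KO 4 were higher and 1 lower, with a median of 0.83, beside 3.02% and 4.05% of all genes tested. Of these 5, FGB, FGG and FGL1 were chosen on these libraries, and FGG and FGL1 passed the filter through SIRT7-KO alone, so nothing is read from the count or the median. The higher genes included FIBCD1, an acetyl-binding membrane receptor with a fibrinogen-like domain and the most abundant gene of the list, with 718, 717 and 1317 reads (2.18-fold higher in SIRT7-KO, 1.99 to 2.39). TNXB was the other, with 19, 26 and 37 reads (2.32-fold, 1.30 to 4.27). Ratios over all genes tested had medians of 0.00 and -0.01.

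**Figure D3:**
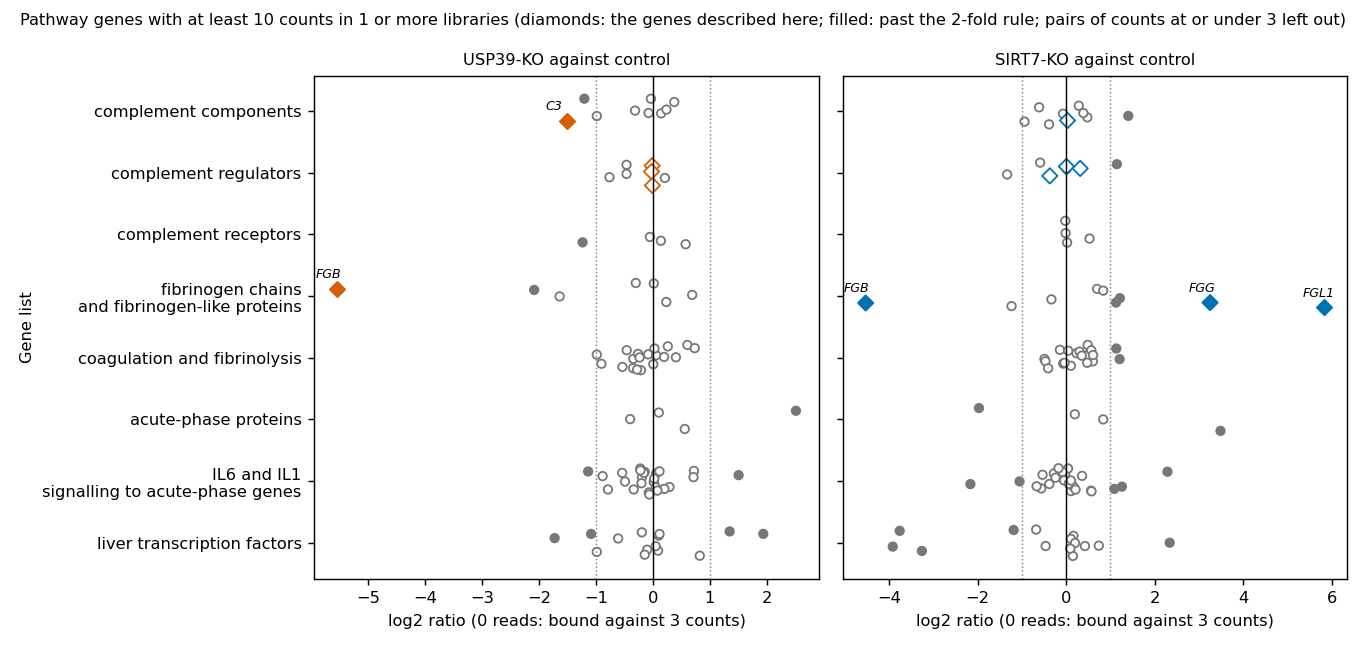
Log2 ratio of each gene passing the filter, by list, in USP39-KO and SIRT7-KO against control, with genes at 0 reads placed at their bound, diamonds for the genes described here and filled symbols for those past the 2-fold rule. The 3 membrane regulators sit near 0 in both panels, while FGB, FGG and FGL1 lie at the edges in SIRT7-KO.

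Genes of clotting and of the acute-phase response were read beside them. Of 38 coagulation and fibrinolysis genes, 19 passed the filter: 0 were higher or lower in USP39-KO (median log2 ratio -0.21), and 2 were higher and 0 lower in SIRT7-KO (median 0.30). Among the higher genes, the tissue plasminogen activator PLAT had 164, 184 and 302 reads (2.19-fold higher in SIRT7-KO, 1.81 to 2.67). ANXA2, a plasminogen co-receptor subunit and the most abundant of the list, had 21282, 18392 and 18453 reads. Of 25 acute-phase proteins 11 had no read in any library and 4 passed the filter. STEAP4, a metalloreductase induced by inflammatory cytokines, was higher in both knockouts (12, 58 and 113 reads), and the haem scavenger HPX was lower in SIRT7-KO (14, 9 and 3 reads). RBP4, the retinol carrier, was the most abundant, with 79, 72 and 76 reads.

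Of 32 genes of interleukin 6 and interleukin 1 signalling, 25 passed the filter. In USP39-KO 1 was higher, the interleukin 1 receptor accessory protein IL1RAP (342 to 823 reads, 2.84-fold, 2.50 to 3.23), and 1 was lower, IL11RA (70 to 27 reads). In SIRT7-KO 3 were higher and 2 lower. The receptor IL1R1 had 59, 82 and 242 reads (4.88-fold, 3.66 to 6.61). SOCS3, the feedback inhibitor of STAT3 signalling, had 267, 217 and 537 reads (2.39-fold higher), and the receptor IL6R 238, 210 and 425 (2.13-fold). The lower genes were the NF-kB subunit RELB (587 to 110 reads, 4.48-fold, 3.65 to 5.55) and IL6 itself (163 to 66 reads, 2.07-fold, 1.55 to 2.80). OSMR, the oncostatin M receptor and the most abundant of the list, had 6665, 3892 and 5657 reads, and STAT3 had 5182, 4552 and 4535. List medians were -0.07 and 0.01.

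Liver transcription factors were read because several act at fibrinogen and complement promoters. Of 14 that passed the filter, 2 were higher and 2 lower in USP39-KO, beside 1.49% and 3.37% of all genes tested. In SIRT7-KO 1 was higher and 4 lower, beside 3.02% and 4.05%. Median log2 ratios were -0.02 and 0.10. HNF4A had 113, 29 and 7 reads, highest in the control as FGB was, and HNF4G had 57, 123 and 5. The endoderm factor GATA6 had 168, 72 and 62 reads and was lower in SIRT7-KO by the rule. CEBPB, an acute-phase factor and the most abundant of the list, had 5258, 4159 and 4757. Their part in the levels of the 9 genes was not tested.

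Markers of other cell types were summed in each library. Of 14 leukocyte and macrophage markers, 7 had no read anywhere, including PTPRC and CD163, and the list summed to 125, 126 and 128 reads. Endothelial and platelet markers summed to 124, 115 and 109 reads, with KDR and PF4 at 0. Of 3 of these that passed the filter, 1 was lower in USP39-KO and 1 higher in SIRT7-KO against control by the rule. Fibroblast and stellate cell markers summed to 371, 314 and 437 CPM, lowest in USP39-KO as C3 was, with COL1A2 and LRAT at 0. The most abundant genes of the list differed in order: FBLN1 had 4898, 2857 and 5230 reads, lowest in USP39-KO, and COL1A1 had 1978, 2071 and 1523, highest there in CPM (102, 126 and 93.3). By the rule 1 of 6 that passed the filter was higher in each knockout against control, ACTA2 (0, 5 and 14 reads), and 0 were lower. ACTA2 passed the filter through SIRT7-KO alone, and in USP39-KO it rested on 5 reads against 0, so nothing is read from it. Their part in the C3 difference was not tested. In bulk RNA fewer cells of a type and less RNA per cell cannot be told apart.

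Genes around each locus were read to see whether the differences extended beyond it. Of 20 other genes within 500 kb of C3 that passed the filter, 1 was lower in USP39-KO, DENND1C (146, 59 and 21 reads), and 0 were higher, with a median log2 ratio of -0.15 against C3 at -1.51. In SIRT7-KO, where C3 did not differ beyond counting error, CRB3 and DENND1C were lower and TNFSF9 higher. Beside the fibrinogen cluster, PLRG1 was the only gene outside it that passed the filter, with 1238, 1214 and 832 reads. Around FGL1, 7 genes passed the filter and 0 were past the rule in either knockout against control, with log2 ratios from -0.59 to 0.47 in SIRT7-KO. Around CFI, 7 passed and 2 were lower in each knockout against control, COL25A1 (125, 36 and 11 reads) and ELOVL6 (61, 9 and 2 reads), beside 9, 2 and 3 reads of CFI itself. Around CD55 and CD46, 7 passed and 0 were past the rule against control, while FCMR (15, 19 and 6 reads) was lower in SIRT7-KO than in USP39-KO.

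**Figure D4:**
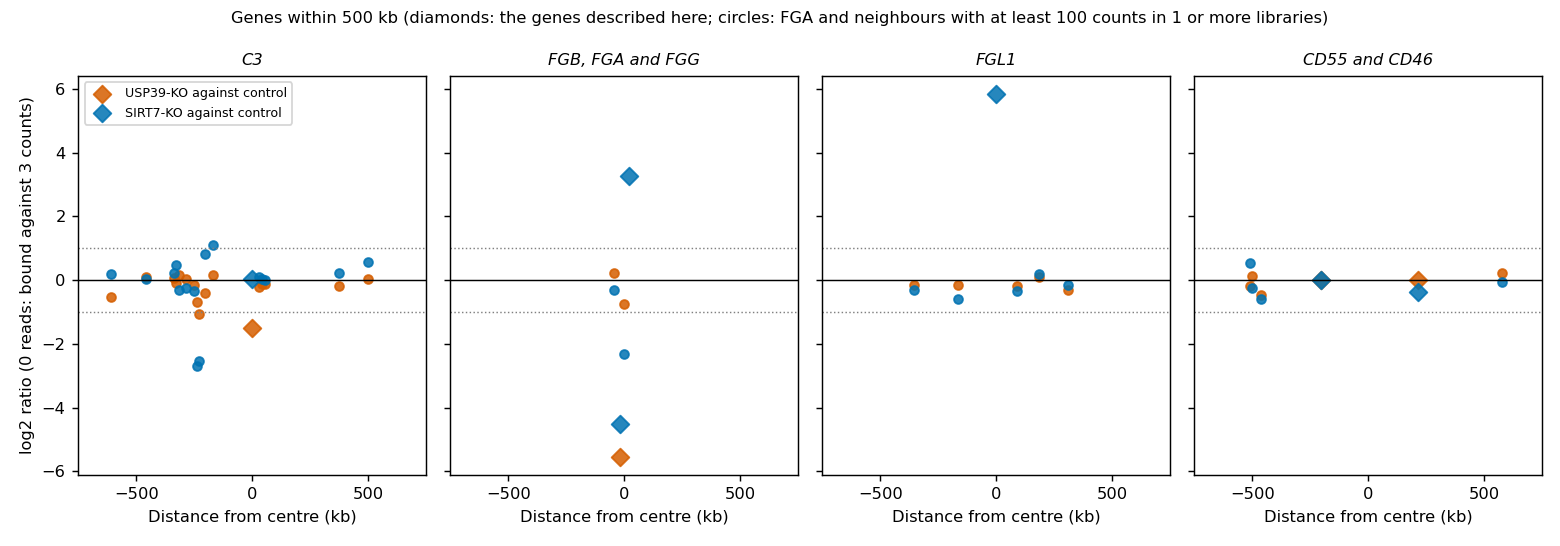
Log2 ratio in USP39-KO and SIRT7-KO against control of genes within 500 kb of C3, the fibrinogen cluster, FGL1 and the CD55 and CD46 locus, by distance in kb from the centre of each locus. Diamonds are the genes described here and circles are FGA and other genes reaching 100 counts in any library, and pairs of counts at or under 3 are left out. FGB, FGG and FGL1 lie far from their plotted neighbours outside the cluster, whereas CRB3 and DENND1C lie below C3 in SIRT7-KO. FGB, FGG and FGL1 are plotted although under the 100 counts asked of neighbours, and FGB and FGL1 were chosen for their ratios. Nothing is therefore read from that distance.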

How the data were processed

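RNA of 3 Hep3B libraries was extracted with Trizol and prepared with a TruSeq kit, per the labels' protocols. The authors deposited whole-number read counts per gene, not normalized, per the file headers. The authors also deposited FPKM, which equalled counts scaled by the listed gene length and the library total within a relative tolerance of 1e-06. The aligner, counter, build, annotation and strand setting: not given in the sources used here. Symbols came from GENCODE 29 and a gene name table by Ensembl identifier.

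Library totals were scaled by TMM factors from edgeR 4.0.16 (1.0000, 0.9896 and 1.0104 for control, USP39-KO and SIRT7-KO). Log2 ratios for lists and calls used a prior of 0.5 counts, and folds are plain ratios of scaled counts. Intervals of ratios are exact conditional binomial and those of CPM exact Poisson, both computed with scipy 1.17.1. The labels name no molecular identifiers, and PCR copies are not independent, so intervals and floors (3 counts) hold counting error alone. With 1 library per group edgeR and DESeq2 tests were not run. Ratios, intervals and calls were tested on simulated counts.

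The 9 genes, the 12 lists (of 242 genes, 241 found) and the motifs were chosen with earlier results of these data known. Named were the 9 genes, their partners, the 2 targets and, per list, up to 5 genes past the rule with 100 counts or more in either library, and the most abundant gene. For C3, FGB and FGL1 the 3 protein-coding genes nearest in their pair of log2 ratios were named, among those with at least 50 counts. Other named genes, among them ITGB2, TNC, TNXB, HPX, IL11RA, IL6, STAT3, COL1A1, ACTA2 and the neighbours of each locus, were chosen after their values were seen. Other scalings, priors, thresholds and filters were tried. Some named genes are not reported here.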

Additional observations from a re-analysis of the deposited data

How the results depend on the processing

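The numbers of the 9 genes past the 2-fold rule were 2, 3 and 3 in USP39-KO against control, SIRT7-KO against control and SIRT7-KO against USP39-KO. They were the same genes with 3 other scalings, a 1.5-fold threshold, a 99% interval, a prior of 2 counts and no count filter. With at least 100 counts required in 1 or more libraries, they were 1, 0 and 1, with C3 the gene left, since that filter takes out FGB, FGG and FGL1. It also lowered the counts over all genes, from 189 higher and 429 lower to 48 and 126 in USP39-KO and from 384 and 515 to 136 and 210 in SIRT7-KO. With 1.5-fold these were 406 and 814, and 917 and 997. Of the log2 ratios of the 9 genes, CD55 in SIRT7-KO against USP39-KO was the only value to leave its interval under another scaling or prior, at 0.05 with library totals alone in place of 0.02. Genes with few reads have wide or unbounded intervals, so staying inside them is no sign of stability. A prior of 2 counts moved FGB in USP39-KO against control from -5.00 to -4.07. It moved FGL1 in SIRT7-KO against USP39-KO from 6.69 to 4.73. The length of the longest coding transcript as a measure of level was added after seeing the data. No paired analysis was possible because each group has 1 library. Genes with fewer than 10 reads, such as CFB and CFI, allow no statement on a 2-fold difference.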

Other observations

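The genes whose pair of log2 ratios against the control lay nearest to that of C3, among 10776 protein-coding genes reaching 50 counts in any library, were NRIP3, DPYD and F2R. NRIP3 had 183, 52 and 168 reads (control, USP39-KO, SIRT7-KO), at a distance of 0.119 on the log2 scale over the 2 ratios. DPYD, the enzyme that starts pyrimidine breakdown, had 198, 63 and 178 reads (distance 0.125). F2R, the thrombin receptor, had 413, 133 and 334 reads (distance 0.140). With 3 libraries a small distance is a description only.

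FGB and FGL1 had no such close match among the genes compared, but nothing is read from this, since their ratios rest on few reads. FGB had 1 read in USP39-KO and 2 in SIRT7-KO. FGL1 had 1 read in the control and 0 in USP39-KO, so that log2 ratio was set by the prior. It was -1.48, and -0.53 with a prior of 2 counts. At 48 reads in SIRT7-KO, FGL1 was also under the count required of the genes compared. Nearest to FGB were CREB5, THRB and EPS8L3, at distances of 1.72, 1.85 and 1.93, and CREB5 had 77, 6 and 2 reads. Nearest to FGL1 were ATP8A2, TCF4 and MGAT4A, at distances of 2.44, 2.71 and 2.82, and ATP8A2 had 16, 6 and 96 reads.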
